A study of Mus musculus with 6 samples.

Results

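The clade B serpins are intracellular serine protease inhibitors, and 8 of them are described here in mouse embryonic stem cells with and without glycogen synthase kinase-3: Serpinb1a, Serpinb6a, Serpinb6b, Serpinb6c, Serpinb9, Serpinb9b, Serpinb5 and Serpinb8. A probe set (1 value per array for 1 target on an Affymetrix mouse expression array) was taken where the platform annotation gives it exactly 1 gene and that gene is among the 8. This gave 14 of 45101 probe sets. Of all 18 clade B serpins with a probe set of their own, these 8 were picked by name with the difference between the genotypes already known. Their differences are therefore a description: no p-value is given for any of them, and where the whole-table fit called them, the calls are counted beside those of all genes with nothing read from the count. Total RNA came from 3 samples of cells lacking both kinase genes (Gsk-3a-/-; Gsk-3b-/-, called DKO) and from 3 samples of wild-type (E14K) cells. Both genotypes were grown without feeders on gelatin in serum medium with ESGRO, a leukaemia inhibitory factor. The labels name E14K for the wild-type cells alone and do not say whether the DKO cells are 1 clone, so a difference between cell lines and the loss of the kinases cannot be told apart. Nor do they say whether replicates were separate cultures, so every p-value covers just the scatter among these arrays, part of which may be technical.

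A serpin traps its protease as bait: the enzyme cuts an exposed loop, and the inhibitor folds around it and stays bound. Clade B members lack a classical secretion signal and act largely inside cells, where they are known for shielding the cell against granule and lysosomal proteases that leak or are delivered from outside. In the mouse the genes lie in groups of duplicated copies on chromosome 13, where the Serpinb1, Serpinb6 and Serpinb9 families have expanded, and on chromosome 1.

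The arrays had median intensities of 10 to 11. Gsk3a read lower on every DKO array, by 1.38 on the log2 scale (SE 0.36), without passing the threshold in limma (adjusted p = 0.0942; 0.00646 when the replicate number entered as a block). The 5 tested probe sets of Gsk3b differed by -0.71 to -0.02. Where these probe sets lie relative to the deleted parts is not known here, so they do not settle the labels. The embryonic stem cell marker list, 8 genes with Pou5f1, Sox2 and Nanog among them, was well above the filter, with a summed intensity of 22323 to 24740 in DKO and 23520 to 24978 in wild-type cells. Replicate 3 stood apart in both genotypes: its bacterial and phage spike-in controls averaged 9.50 and 9.91 log2 units, against 1.73 to 1.85 on the other 4 arrays. Each clade B serpin below that reached the filter is therefore also given for replicate 3 and for replicates 1 and 2, together or as pairs. RNA of a bulk sample does not tell fewer cells with a transcript from less transcript per cell.

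Serpinb1a, Serpinb6b and Serpinb9b read higher on every DKO array than on every wild-type array. Serpinb9, Serpinb8 and, by 0.40, Serpinb6c were higher on average with overlapping arrays, and Serpinb6a and Serpinb5 overlapped with slightly lower averages. Testing required a log2 value of 4 or more (an intensity of 16) on 3 or more of the 6 arrays. Of the 8 genes 6 had such a probe set, and Serpinb5 and Serpinb8 did not. In the limma fit over all 20841 tested probe sets, 2 of the 6 genes (Serpinb1a and Serpinb6b) lay past an adjusted p of 0.05, both higher, beside 4.13% of all 10496 genes in either direction and 1.64% higher. Every DKO array was above every wild-type array in 3 of the 6, beside 8.49% of all genes. Nothing is read from these shares, since the genes were chosen on this contrast and Serpinb6b entered the fit only through its DKO arrays. The median log2 difference of the 8 genes, each at its brightest probe set, was 1.33, and the median over all tested genes was -0.0025.

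**Figure D1:**
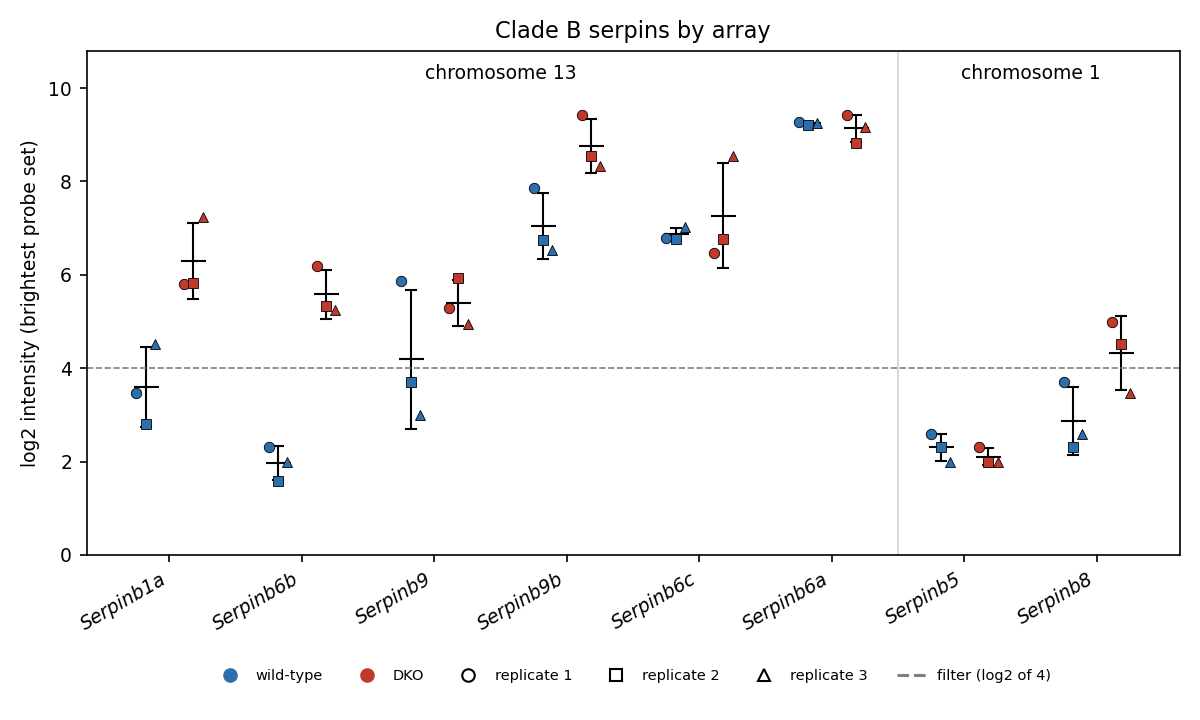
Log2 intensity (vertical axis) of the brightest probe set of each of the 8 serpins, wild-type in blue and DKO in red, with 1 marker per array, shaped by replicate number. Bars give the mean and SD (n = 3) and the dashed line is the filter at a log2 value of 4. Serpinb1a, Serpinb6b and Serpinb9b separate by genotype, Serpinb6a does not, and Serpinb5 lies under the filter on all 6 arrays.

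Serpinb1a encodes the leukocyte elastase inhibitor, which blocks neutrophil elastase, cathepsin G and proteinase 3. Its brightest probe set, 1416318_at, had intensities of 56, 57 and 150 on DKO arrays 1 to 3 and of 11, 7 and 23 on wild-type arrays 1 to 3. The lowest DKO array was above the highest wild-type array, and replicate 3 was the highest array of both genotypes. On the log2 scale DKO averaged 6.29 ± 0.81 and wild-type 3.60 ± 0.87 (SD, n = 3, as for all means here), a difference of 2.69, or 2.12 with arrays under the filter set to it. Within replicate 3 the difference was 2.71 and over replicates 1 and 2 it was 2.69. The other probe set of the gene, 1448301_s_at, had intensities of 76, 86 and 46 in DKO and of 14, 13 and 11 in wild-type cells. There the difference was 2.41, and with all 3 wild-type arrays under the filter DKO was at least 4.19-fold higher, the wild-type level being taken as the filter. The suffix s marks probes that can match more than 1 transcript, and here replicate 3 was the lowest DKO array rather than the highest. Both probe sets thus put DKO above wild-type and disagree on the order of the DKO arrays.

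Serpinb6b, a copy in the Serpinb6 family, went from the bottom of the scale to a modest signal. Intensities of 1422804_at were 73, 40 and 38 in DKO and 5, 3 and 4 in wild-type cells. All wild-type arrays were near the lower quartile of their arrays, an intensity of 4, and all DKO arrays were above the filter. Its log2 means were 5.59 ± 0.52 and 1.97 ± 0.37, and DKO was at least 3.00-fold higher against the filter. The fitted difference of 3.62, the largest of the 8 genes, depends on wild-type values that are whole numbers of 3 to 5 and shrank to 1.59 with values under 16 set to 16. It was 3.25 within replicate 3 and 3.80 over replicates 1 and 2.

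Serpinb9b is a copy of Serpinb9, the inhibitor of granzyme B, the protease that killer lymphocytes deliver to their targets. It was well above the filter on all 6 arrays. Intensities of 1422668_at were 682, 374 and 320 in DKO and 232, 107 and 93 in wild-type cells. The genotypes did not overlap, and replicate 1 was the highest array of each. Mean log2 values were 8.76 ± 0.58 and 7.05 ± 0.71, a difference of 1.71, or 3.28-fold. The same-numbered pairs differed by 1.56, 1.81 and 1.78, a narrower range than the arrays within either genotype. The gene did not pass in the unblocked fit; with the replicate number as a block, 3 of the 6 tested genes passed, Serpinb9b the added one, beside 10.7% of all genes.

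Serpinb9 itself overlapped between the genotypes. Intensities of 1422601_at were 39, 61 and 31 in DKO and 58, 13 and 8 in wild-type cells, so that wild-type replicate 1 was as high as the DKO arrays and the other wild-type arrays were below all of them. DKO and wild-type cells averaged log2 values of 5.39 ± 0.50 and 4.19 ± 1.49, a difference of 1.20 that was -0.57 in the pair numbered 1, 2.23 in the pair numbered 2 and 1.95 in replicate 3. Without wild-type replicate 1 the difference was 2.04. The dim probe set 1439790_at (intensity 5 to 7 in DKO, 3 to 7 in wild-type cells) had the same high wild-type array. Wild-type replicate 1 was also the highest wild-type array for Serpinb6b, Serpinb9b and Serpinb8.

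**Figure D2:**
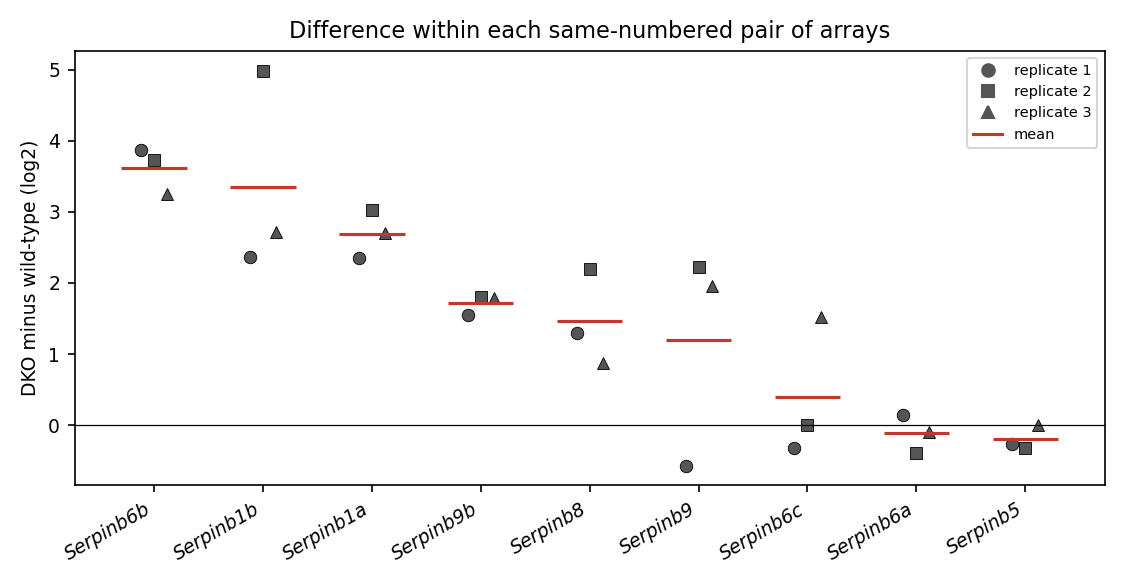
DKO minus wild-type log2 difference (vertical axis) within each same-numbered pair of arrays for the 8 serpins and Serpinb1b, ordered by the mean (red line), with 1 marker per replicate number. The pairs of Serpinb9b lie between 1.56 and 1.81, those of Serpinb9 between -0.57 and 2.23, and Serpinb6c exceeds 0 in replicate 3 alone.

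The Serpinb6 genes at the other end of the chromosome 13 group did not separate the genotypes. Serpinb6a, a broadly expressed inhibitor of cathepsin G and trypsin-like enzymes, had intensities of 684, 455 and 572 in DKO and of 621, 595 and 613 in wild-type cells on 1450138_a_at. The log2 means were 9.14 ± 0.29 and 9.25 ± 0.03, and the wild-type range fell inside the DKO range. Within replicate 3 Serpinb6a differed by -0.10, and over replicates 1 and 2 by -0.12. Serpinb6c, a copy of it, had intensities of 89, 109 and 376 in DKO and of 111, 109 and 131 in wild-type cells on 1451594_s_at, a probe set that by its suffix can match other transcripts. DKO replicate 3 alone was high. The mean difference of 0.40 was 1.52 in replicate 3 and -0.16 over replicates 1 and 2.

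On chromosome 1, Serpinb8, an inhibitor of the proprotein convertase furin, had intensities of 32, 23 and 11 in DKO and of 13, 5 and 6 in wild-type cells on 1422776_at. DKO replicate 3 lay below wild-type replicate 1, so the genotypes overlapped, and 2 of the 6 arrays reached the filter, too few to be tested. The log2 means were 4.33 ± 0.79 and 2.87 ± 0.73, a difference of 1.46, or 0.51 with arrays under the filter set to it. All wild-type arrays and DKO replicate 3 were under the filter, so no least fold is given. Within replicate 3 the gene differed by 0.87, and over replicates 1 and 2 by 1.75. Its other probe set, 1458882_at, did not exceed an intensity of 7. Serpinb5 (maspin), a non-inhibitory serpin of epithelia, did not exceed an intensity of 6 on any array in any of its 4 probe sets.

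Of the other clade B serpins, 10 had a probe set of their own and 1 was bright enough to test. Serpinb1b, a copy of Serpinb1a, read higher in DKO. Intensities of 1426318_at were 72, 159 and 59 in DKO and 14, 5 and 9 in wild-type cells, with no overlap. Means were 6.46 ± 0.76 and 3.10 ± 0.75 log2 units, and DKO was at least 5.48-fold higher (difference 3.36, SE 0.46, limma adjusted p = 0.00489). Within replicate 3 Serpinb1b differed by 2.71, and over replicates 1 and 2 by 3.68. All 3 wild-type arrays were under the filter, so the gene entered the fit only through its DKO arrays. The call was lost without filtering (adjusted p = 0.112), without moderation (0.188) and without DKO replicate 1 (0.0528), and held in the other 5 fits that left out an array. Probe sequences were not used here, so shared hybridisation between Serpinb1a and Serpinb1b was not examined. The other 9 (Serpinb2, Serpinb3a, Serpinb6e, Serpinb7, Serpinb9c, Serpinb9d, Serpinb9g, Serpinb11 and Serpinb12) were under the filter on all 6 arrays. The 1 probe set shared by several clade B serpins, which the annotation gives to Serpinb9e, Serpinb9f, Serpinb9g and Serpinb9h, read 2, 3 and 3 in DKO and 4, 3 and 3 in wild-type cells and was not tested.

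Among serpins with a probe set of their own, the 4 of chromosome 13 with a difference of at least 1, and Serpinb1b, adjoin in RefSeq gene order. Serpinb1c and a Serpinb1 pseudogene, which have no such probe set, lie between Serpinb1a and Serpinb6b. Serpinb6c, higher in DKO by 0.40, lies near the other end of the chromosome 13 group, and Serpinb8 lies on chromosome 1. From the Wrnip1 end of the chromosome 13 group the order is Serpinb1a, Serpinb6b, Serpinb9, Serpinb9b, Serpinb1b, then the dim Serpinb9c, Serpinb9d, Serpinb9g and Serpinb6e, and last Serpinb6c and Serpinb6a before Nqo2, leaving out genes with no probe set of their own. The log2 differences along the first 5 were 2.69, 3.62, 1.20, 1.71 and 3.36. On chromosome 1, Serpinb5 and Serpinb8 are the first and the last of the group, with 5 dim serpins between them in this order.

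The genes next to both groups were examined in the same fit. Of 40 tested genes, 10 on each side of each group, limma called 0, beside 4.13% of all genes, with 4 at an unadjusted p under 0.05. The linear model without moderation called 0, beside 0.21% of all genes. With shares this small, counts of 0 say little about 40 genes. Their median difference was -0.07 and their range -1.04 to 0.74. The nearest tested genes were Wrnip1, an ATPase of DNA repair (difference 0.09, adjusted p = 0.95), and Nqo2, a quinone reductase (-0.14, adjusted p = 0.904), on chromosome 13. On chromosome 1 they were Vps4b, an ATPase of membrane remodelling (-0.18, adjusted p = 0.867), and Dsel, an enzyme of dermatan sulphate synthesis (0.56, adjusted p = 0.7). No tested gene of another family lay inside either group. With the replicate number as a block, 2 of the 40 passed, Mboat1 (-0.92, adjusted p = 0.0268) and Inhbb (-1.04, adjusted p = 0.0258), beside 10.7% of all genes.

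**Figure D3:**
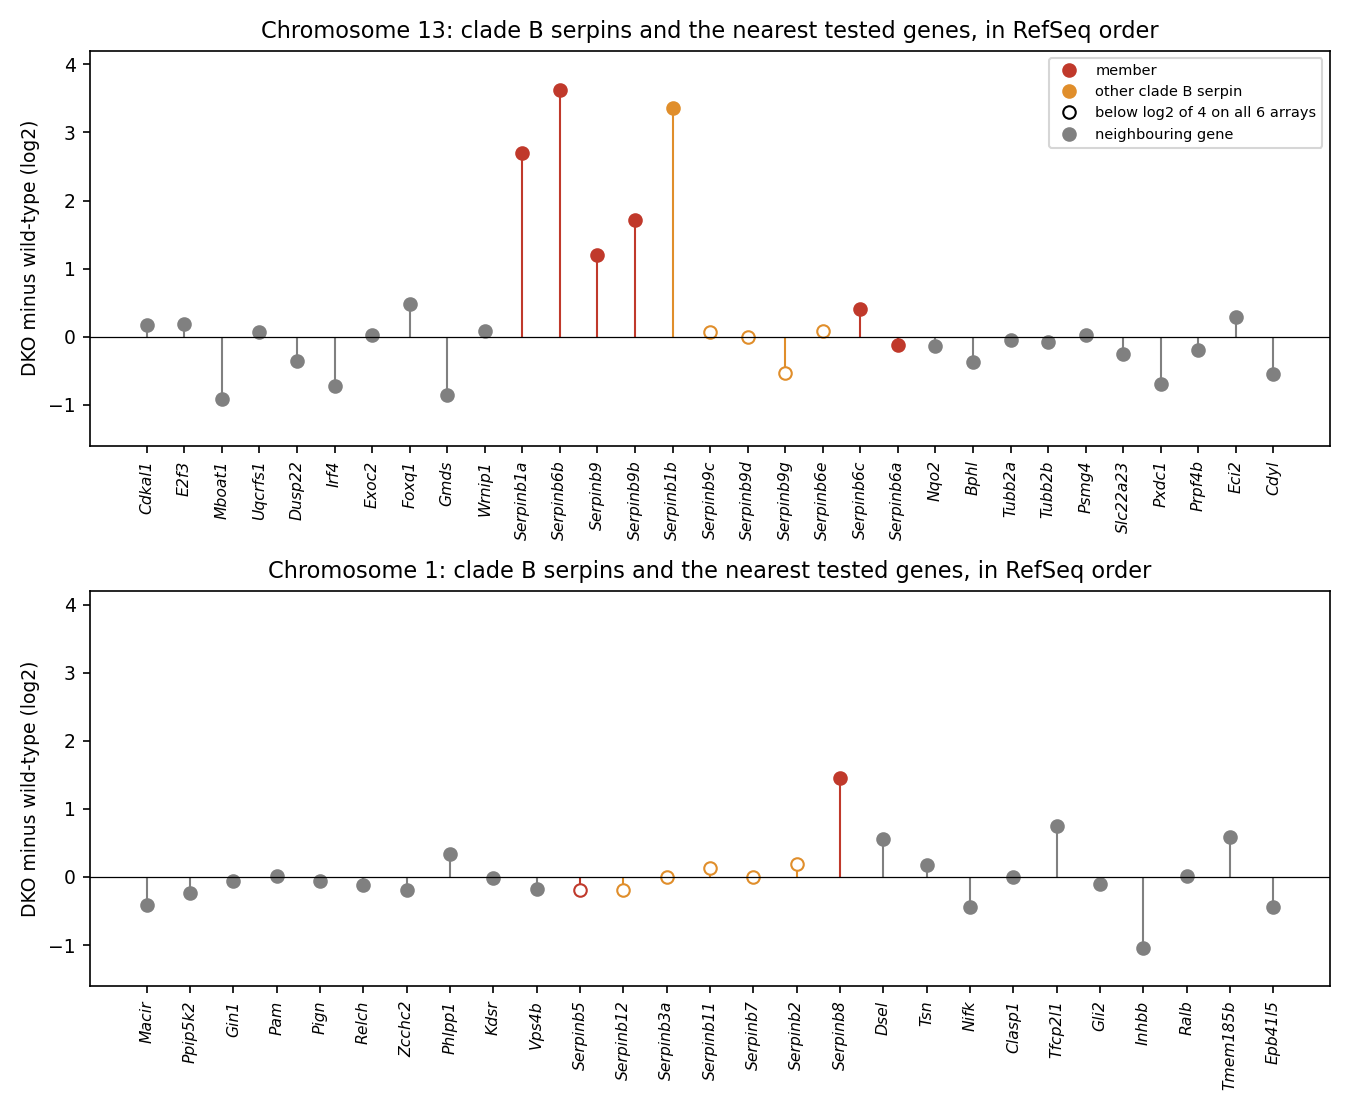
DKO minus wild-type log2 difference (vertical axis) of the clade B serpins with a probe set of their own and of the 10 nearest tested genes on each side, in RefSeq order, for chromosome 13 (top) and chromosome 1 (bottom). Red marks the 8 serpins described, orange the other clade B serpins, grey the neighbouring genes, and open circles genes under a log2 value of 4 on all 6 arrays. The first 5 serpins of chromosome 13 lie between 1.20 and 3.62 and the neighbouring genes between -1.04 and 0.74.

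Promoters of 7 of the 8 genes were matched in the RefSeq table (GRCm38.p6); Serpinb1a was not. The 250 bases before the start are shown for the adjacent genes that read higher in DKO, and for Serpinb6a, which did not, to let their CpG content be compared. Of the starts of Serpinb6a only the one with more CpG is shown, and other serpins that did not separate the genotypes are given as counts below. The study's title concerns DNA methylation, which acts on CpG dinucleotides, but methylation was not measured on these arrays. Capitals mark each CpG.
Serpinb6b, chr13:32965011-32965260, plus strand: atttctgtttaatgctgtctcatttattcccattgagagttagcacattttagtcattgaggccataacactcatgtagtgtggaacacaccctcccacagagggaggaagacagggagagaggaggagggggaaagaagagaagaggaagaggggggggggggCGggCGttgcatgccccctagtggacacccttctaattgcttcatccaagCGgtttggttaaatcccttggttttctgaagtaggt
Serpinb9, chr13:33004291-33004540, plus strand: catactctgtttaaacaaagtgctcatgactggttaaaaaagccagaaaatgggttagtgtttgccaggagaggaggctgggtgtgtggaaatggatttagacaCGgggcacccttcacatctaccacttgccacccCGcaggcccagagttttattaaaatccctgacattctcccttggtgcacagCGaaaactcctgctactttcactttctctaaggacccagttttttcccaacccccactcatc
Serpinb9b, chr13:33027164-33027413, plus strand: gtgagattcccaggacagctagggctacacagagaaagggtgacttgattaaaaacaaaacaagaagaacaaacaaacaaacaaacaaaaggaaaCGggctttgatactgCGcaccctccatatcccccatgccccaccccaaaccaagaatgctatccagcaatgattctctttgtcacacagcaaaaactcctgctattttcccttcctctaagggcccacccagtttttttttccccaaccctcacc
Serpinb1b, chr13:33083853-33084102, plus strand: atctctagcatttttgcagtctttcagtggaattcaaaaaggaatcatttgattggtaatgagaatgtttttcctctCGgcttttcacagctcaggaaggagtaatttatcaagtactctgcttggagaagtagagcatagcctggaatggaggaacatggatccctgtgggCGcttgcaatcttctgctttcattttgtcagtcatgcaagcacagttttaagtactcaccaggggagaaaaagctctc
Serpinb6a, chr13:34002795-34003044, minus strand: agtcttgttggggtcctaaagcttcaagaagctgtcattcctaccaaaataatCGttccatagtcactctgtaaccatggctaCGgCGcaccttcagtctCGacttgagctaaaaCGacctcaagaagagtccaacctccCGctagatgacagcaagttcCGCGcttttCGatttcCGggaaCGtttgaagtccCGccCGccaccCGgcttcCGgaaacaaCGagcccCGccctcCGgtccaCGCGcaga

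The sequences of Serpinb6b and Serpinb9 hold 3 CpG each and those of Serpinb9b and Serpinb1b hold 2. Over all 32851 promoters of the table the median was 6, and 37.8% hold at most 3. The promoter of Serpinb6a holds 20, and a second start of that gene has 2. Serpinb6c has 8, Serpinb5 6 and Serpinb8 2. Over all 32 promoters of clade B serpins in the table the median was 1.5, so low CpG counts are common in the family as a whole. Few motifs were found in these windows. The Tcf/Lef motif CTTTGAT (either strand, as for all motifs here) occurs in Serpinb9b, starting 151 bases before the start, and in 3.21% of all promoters; its variant CTTTGAA, in 4.46% of all, occurs in none of the 7 genes. The interferon-stimulated response element, searched as its repeated core, occurs on the reverse strand in Serpinb9 (46 bases before the start) and Serpinb6a (84 bases), and in 2.98% of all. The TATA box TATAAA, in 12.4% of all, occurs in none of the 7 genes. None of these matches overlap. Serpinb9 and Serpinb9b share a stretch of 13 bases, aaaactcctgcta, at 60 and 64 bases before their starts, the longest shared by any pair among the 7 genes and Serpinb1b.

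Granule serine proteases, among them known targets of these serpins, were mostly below the filter in both genotypes. Of 17 granule serine proteases with a probe set, including neutrophil elastase (Elane), cathepsin G (Ctsg), proteinase 3 (Prtn3) and granzyme B (Gzmb), 16 were under the filter on all 6 arrays, none could be tested, and the summed intensity was 60 to 73 in DKO and 61 to 62 in wild-type cells. Perforin (Prf1), which lets granzymes enter a target cell, and the granule proteoglycan Srgn differed by 0.25 and 0.03 (adjusted p = 0.857 and 0.994). Of 8 tested cathepsins limma called 0 (4.13% of all genes), with 1 at an unadjusted p under 0.05 and 0 without moderation (0.21% of all genes). Ctsc, the activator of granule proteases, was that one (difference 1.05, adjusted p = 0.12; 0.0270 with the replicate block). Of 13 tested furin-family and trypsin-like proteases 1 rose and 12 did not pass. Tmprss2, a membrane-bound serine protease, was the one that rose, from 3.71 ± 0.33 to 5.93 ± 0.46 (difference 2.22, SE 0.31, limma adjusted p = 0.00489). Its wild-type mean lay under the filter, so its DKO arrays brought it into the fit and its call carries that limit. Furin itself differed by 0.27 (adjusted p = 0.789). With the replicate block 4 of the 13 passed, Tmprss2, Htra2 (1.02, adjusted p = 0.0130) and Pcsk6 (0.99, 0.0354) higher and Klk8 (-0.88, 0.0407) lower. Of 4 tested caspases limma called 0 (4.13% of all genes), with 1 at an unadjusted p under 0.05 and 0 without moderation (0.21% of all genes). That one was Casp8, an initiator of apoptosis (difference 0.89, adjusted p = 0.263; 0.0307 with the replicate block).

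Of 13 tested protease inhibitors outside the serpins 1 fell and 12 did not pass; the one that fell was Spink1, a trypsin inhibitor (difference -4.20, adjusted p = 0.000484). With the replicate block 4 passed, Spint1 and A2m higher and Spink1 and Wfdc2 lower. Of 4 tested serpins of other clades limma called 0 (4.13% of all genes), with 0 at an unadjusted p under 0.05 and 0 without moderation (0.21% of all genes). These were Serpinh1, a collagen chaperone (-0.13), Serpinf1 (-0.42), Serping1, an inhibitor of complement (-0.19), and Serpini1, a serpin of neurons (-0.29), with adjusted p-values of 0.822 to 0.936. Over the 6 lists of proteases, granule partners and other inhibitors, 2 of 40 tested genes passed, beside 4.13% of all genes. With the replicate number as a block 10 passed, 7 higher and 3 lower, beside 10.7% of all genes.

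**Figure D4:**
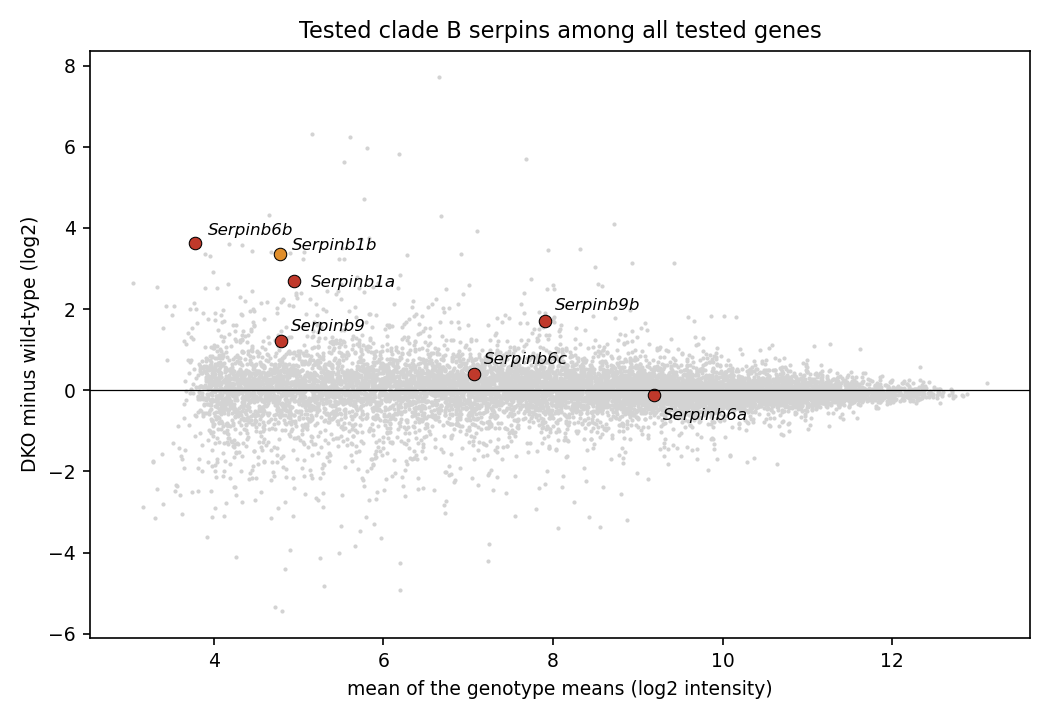
DKO minus wild-type log2 difference (vertical axis) against the mean of the genotype means (horizontal axis, log2 intensity) for all 10496 tested genes in grey, with the 6 tested serpins of the 8 in red and Serpinb1b in orange. Serpinb6b, Serpinb1b and Serpinb1a lie at the dim end with differences of 2.69 to 3.62, and Serpinb6a and Serpinb6c lie near 0.

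Markers of blood cells and stratified epithelium were mostly under the filter, and those of trophoblast and extraembryonic endoderm were not uniformly so. Of 8 myeloid and mast cell markers 7 were under the filter on all 6 arrays, Ptprc, Csf1r and Mpo among them, with a summed intensity of 73 to 184 in DKO and 68 to 142 in wild-type cells. Of 5 T and NK cell markers 4 were under it (29 to 35 against 28 to 37), and of 6 markers of stratified epithelium 5 (87 to 123 against 89 to 101). Fibroblast markers summed to 197 to 283 in DKO and 222 to 446 in wild-type cells, with 3 of 8 under the filter on all arrays. Trophoblast markers, with 4 of 7 under the filter (Elf5, Hand1, Tpbpa and Plac1), summed to 1048, 1904 and 3106 on DKO arrays 1 to 3 and to 3152 to 3762 in wild-type cells. The 1 tested trophoblast marker, Tfap2c, differed by -0.89 (adjusted p = 0.354). Extraembryonic endoderm markers (6 of 8 tested, 2 at an unadjusted p under 0.05 and 0 past the threshold in limma, also with the replicate block) summed to 2216, 1873 and 3465 in DKO and 2701, 1848 and 804 in wild-type cells. The median log2 difference of the 6 tested was 1.00, with Gata4, Gata6, Sox17 and Foxa2 at 0.95 to 1.26 and Sox7 and Amn at -0.35 and -0.75. Over the wild-type arrays their summed order is that of Serpinb9 and Serpinb9b, which in DKO were lowest on replicate 3, where the markers were highest. DKO replicate 3 is the high array of Serpinb6c and of the brightest probe set of Serpinb1a. In wild-type cells both of these were also highest on replicate 3, where the markers were lowest. The part of these markers in the serpin values was not tested.

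The genes whose pattern over the 6 arrays was most like that of Serpinb6b, by Pearson's correlation of log2 values among tested genes outside the serpins, were Slc13a4, an anion transporter, Phka1, a subunit of phosphorylase kinase, Tdrp, Galnt12, a glycosyltransferase, and Acad10, with correlations of 0.993 to 0.997. All 6 arrays are shared and the genotype separates them, so 124 genes exceeded 0.95. The sizes differed widely: Tdrp averaged 9.86 ± 0.32 against 7.29 ± 0.33, a difference of 2.58, and Phka1 differed by 0.43.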

How the data were processed

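The authors deposited a single whole-number intensity (1 to 12861) for every probe set on every array; the scale is unstated and was taken as linear. In the submitters' processing notes limma 2.16.5, GCRMA 2.14.1, GCOS and R 2.8.0 stand without roles; for the genome build the sources used here give none. Values were converted to log2 with no pseudocount. Gene names come from the platform annotation, updated by gene identifier to the RefSeq table (34741 of 34958 single-gene probe sets matched), which also gave gene order. DKO was compared with wild-type with limma 3.58.1 in R 4.3.3 (lmFit, eBayes, two-sided, Benjamini-Hochberg over 20841 tested probe sets), and a gene was read at its brightest tested probe set. The procedure was run on simulated data with independent noise on each array. The simulation held no effect shared by same-numbered arrays and no rounding of low values, so it does not cover these. The 8 serpins and all lists were chosen with earlier results of these data known. The genes named are the 8 serpins, other clade B serpins with a probe set, the genes past the threshold in each list (at most 4), the neighbouring genes that passed and the nearest ones; Ctsc, Casp8, Furin, the genes that passed with the replicate block, the trophoblast and endoderm markers, the 4 serpins of other clades and the granule proteases and partners were added after their values were seen. The deviations of same-numbered arrays correlated at 0.427, 0.354 and 0.595 over tested probe sets, each over 0.1. Of the differently numbered pairs, DKO replicate 2 with wild-type replicate 1 reached 0.113 and the rest were negative. The numbers, which come from the sample titles, were taken to pair the arrays, and the block was an alternative. Rounding makes low values coarse, no detection flags were given, and the number of arrays limits the precision.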

Additional observations from a re-analysis of the deposited data

How the results depend on the processing

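The genotypes did not overlap for Serpinb1a, Serpinb6b and Serpinb9b. A pseudocount, a floor or leaving out an array thus could not turn their log2 differences negative, and their sign is no check. As single arrays were left out, the differences ran from 2.22 to 3.16, from 3.32 to 3.79 and from 1.39 to 2.12. With quantile normalization they were 2.76, 3.62 and 1.73, and with median centring 2.69, 3.61 and 1.71. The median over the 8 genes ran from 0.96 to 1.96 as single arrays were left out. It was 0.86 with log2(value + 8) and 0.64 with values under 16 set to 16. The size for dim genes did not hold: Serpinb6b differed by 2.23 with log2(value + 8) and 1.59 with values under 16 set to 16, Serpinb1b by 2.51 and 2.46, and Serpinb8 by 0.51 with the latter. Serpinb1a and Serpinb6b passed in the unblocked fit. Without filtering 1 of 8 passed (Serpinb6b), with a filter at a log2 value of 6 the count was 0 of 3 tested, and without moderation 0 of 6; as single arrays were left out it was 1 to 4. Serpinb1b, the only other clade B serpin tested, did not pass without filtering (adjusted p = 0.112) or without moderation (0.188), was not tested at the stricter filter, and over the fits leaving out an array the count was 0 or 1. Over all probe sets, 675 passed; the count was 1995 with the replicate block, 1117 with a term for replicate 3, whose spike-in controls stood apart, 440 in replicates 1 and 2 alone, 373 with the stricter filter, 31 without moderation and 290 to 604 as single arrays were left out. Of the 40 proteases and inhibitors tested, 10 passed with the replicate block, 4 with the replicate 3 term, 0 without moderation, 1 of 31 with the stricter filter and 2 in each fit leaving out an array. Of the neighbouring genes, 2 passed with the replicate block and 0 in the other alternatives. The cause of these shifts was not tested beyond the number of genes and arrays each setting leaves. Low intensity limits Serpinb6b, Serpinb8 and the wild-type level of Serpinb9 and of both Serpinb1 genes. The log2 ratio of 3' to 5' signal of control transcripts, a measure of RNA length, was 1.83 to 2.44 in DKO and 1.64 to 2.30 in wild-type cells. It was higher on the DKO array of every same-numbered pair. Its part in the serpin values was not tested.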
